A study of Mus musculus with 6 samples.

Results

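The laminin chain genes are the subject here. Laminins are large secreted proteins built from 1 α, 1 β and 1 γ chain, and a trimer is named by its chain numbers. The 9 genes described are those for the α chains Lama1 to Lama5, the β chains Lamb1 to Lamb3 and the γ chain Lamc1, taken by gene symbol from a table of 25655 genes. A further γ chain gene, Lamc3, is given beside them because some known trimers need its chain. The samples were Comma-Dβ cells (labelled Comma-Dbeta), a mouse line of mammary epithelial origin in long use, taken at passage 29. All cells were transfected with 20 nM of a Dharmacon siRNA pool by Dharmafect-4 and harvested 48 hr later. The siID4 arm (3 libraries) received the siGENOME Mouse Id4 SMARTpool and the NT arm (3 libraries) the ON-TARGETplus Non-targeting Control Pool, so the product line also differed between the arms. The labels call the replicates biological and do not say whether they were separate cultures, so p-values measure the spread between these libraries.

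Laminin chains join inside the cell through their coiled-coil arms, and the trimer is secreted into the basement membrane, the sheet of matrix under an epithelium. There it polymerises or anchors, and its α chain binds integrins and dystroglycan on the cell above. In the mammary gland the basement membrane lies under the myoepithelial layer, and contact with laminin is known to support polarity and milk protein synthesis. The α3 and β3 chains are known from the laminin to which hemidesmosomes attach, while the α4 chain is best known from vessels, muscle, fat and other mesenchymal tissue.

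The libraries held between 19.2 M and 23.1 M counts. Id4, the siRNA target and an inhibitor of DNA-binding helix-loop-helix proteins, was at 135, 114 and 118 CPM (counts scaled to library size by TMM) in NT. It fell to 59.4, 62.2 and 48.2 CPM with the Id4 pool, a log2 change of −1.11 (SE 0.10, edgeR adjusted p = 8.65e-04). Among the mammary epithelial markers Krt14 was at 936 ± 74.2 CPM in NT and Epcam at 222 ± 9.13 CPM (SD, n = 3). The 9 epithelial markers summed to 2428 to 2751 CPM in NT libraries and 2244 to 2603 CPM in siID4 libraries. Of them Cdh1 and Trp63 rose, Epcam fell, and the other 6 did not pass, with a median log2 fold change of −0.14 (2 rose and 4 fell in a fit blocked on the replicate number). Over all 13941 genes tested, 9.55% were called at an adjusted p under 0.05 by edgeR's quasi-likelihood test, 4.62% higher and 4.93% lower in siID4. With library totals in place of TMM, 829 genes rose and 564 fell, against 644 and 687. With the replicate number as a block, 36.1% were called, 17.9% higher and 18.3% lower. Without siID4 replicate 2, 221 genes rose and 224 fell. All 60 counts of these 10 chain genes were whole numbers, and no 50-base stretch was shared between the longest coding transcripts of any of these genes, so no chain's value depended on dividing reads with another chain.

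The start regions of the main α and β chain genes are shown first, because ID proteins act by binding E proteins, factors that recognise the sequence CANNTG (the E-box). RefSeq sequences of 250 bases before to 50 bases after a start (build GRCm38.p6) were used for 5 of the 9 genes, namely Lama2, Lama5, Lamb1, Lamb2 and Lamb3. Lama1, Lama4 and Lamc1 had no entry. No sequence was used for Lama3, and whether it had an entry is not reported here. Each stretch runs 5′ to 3′ on the gene's strand, with each CANNTG in capitals. Lama5 is at chr2:180225810-180226109 on the minus strand, Lamb1 at chr12:31265043-31265342 and Lamb2 at chr9:108479612-108479911, both on the plus strand.
Lama5: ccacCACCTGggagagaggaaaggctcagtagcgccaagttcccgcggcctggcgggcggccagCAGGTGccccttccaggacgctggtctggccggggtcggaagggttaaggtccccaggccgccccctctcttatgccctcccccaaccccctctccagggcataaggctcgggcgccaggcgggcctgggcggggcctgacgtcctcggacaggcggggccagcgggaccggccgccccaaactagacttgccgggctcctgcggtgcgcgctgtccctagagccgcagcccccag
Lamb1: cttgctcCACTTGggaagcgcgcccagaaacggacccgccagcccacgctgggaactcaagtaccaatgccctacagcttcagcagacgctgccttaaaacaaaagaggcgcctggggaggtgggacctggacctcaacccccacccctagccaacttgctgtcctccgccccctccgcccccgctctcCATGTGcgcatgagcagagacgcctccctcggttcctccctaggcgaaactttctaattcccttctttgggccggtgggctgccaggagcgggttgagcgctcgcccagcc
Lamb2: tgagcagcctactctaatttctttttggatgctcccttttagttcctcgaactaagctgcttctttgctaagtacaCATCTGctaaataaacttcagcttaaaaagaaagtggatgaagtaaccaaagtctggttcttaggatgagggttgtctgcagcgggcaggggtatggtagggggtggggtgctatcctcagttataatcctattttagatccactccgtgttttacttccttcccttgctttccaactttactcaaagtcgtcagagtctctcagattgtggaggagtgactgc

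The Lama5 stretch held 2 E-boxes, both of the form CAGGTG or its complement CACCTG, which 20.2% of all 32851 promoters of this length held on either strand. The Lamb1 stretch held 2 E-boxes and the Lamb2 stretch 1, none of that form. CANNTG reads the same on both strands, and 72.3% of all promoters held at least 1, with a median of 1. Of 2 Lamb3 starts, one held the form CAGCTG, found in 16.3% of all promoters, and the other held CACCTG in 2 places. Lama2 held 1 E-box of neither form. These matches are letters in the window and say nothing of binding.

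Levels of different genes were compared per length, as TPM (transcript abundance scaled to a fixed sum per library) from the counts and the gene length in the deposited table. Comma-Dβ cells held mRNA for 3 of the 5 α chains, all 3 β chains and the γ1 chain. In order of the NT mean, the levels were 116 ± 4.71 TPM for Lamb1, 116 ± 1.41 for Lamc1, 63.2 ± 1.84 for Lamb2, 62.8 ± 3.45 for Lama5, 41.2 ± 2.61 for Lamb3, 14.8 ± 0.432 for Lama4 and 7.90 ± 1.39 for Lama3. The ranges of Lamb1 and Lamc1 overlapped in NT, as did those of Lamb2 and Lama5. The other neighbours down to Lama3 did not overlap. This order is that of the deposited lengths. With union exon lengths it began with Lamc1 (159 TPM in NT), Lamb1 (108), Lama5 (103) and Lamb2 (60.7), and with the longest coding transcripts Lama5 (62.8) was above Lamb2 (40.0). Lama1, Lama2 and Lamc3 were each at most 0.143 TPM in any library.

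**Figure D1:**
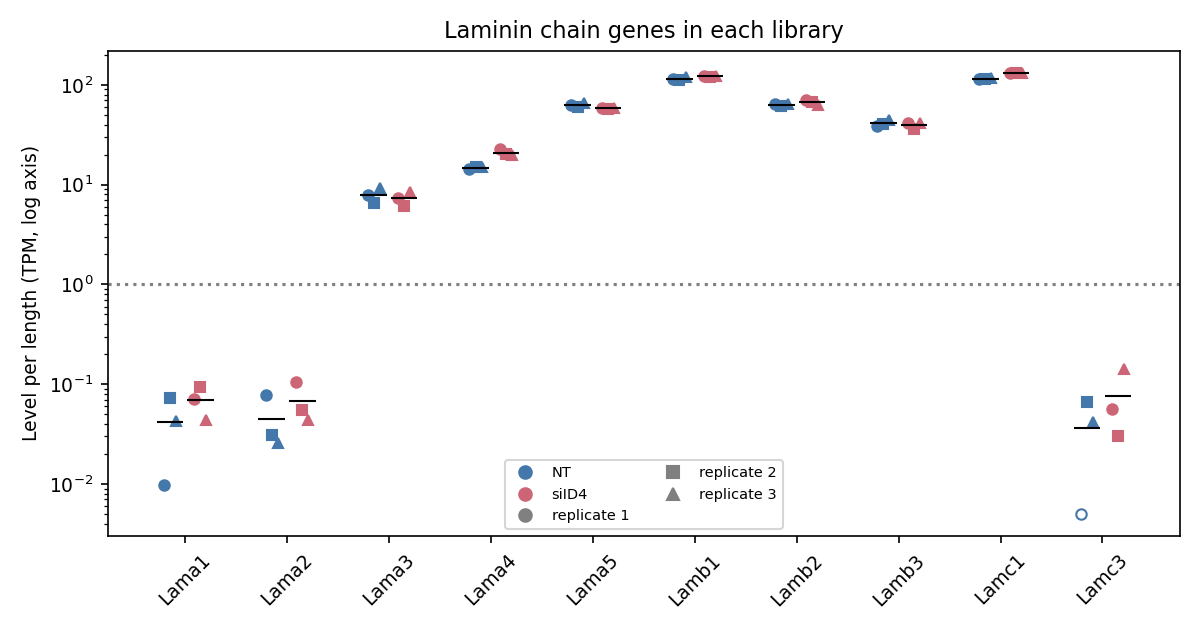
Level per length (TPM, log axis) of the 9 laminin chain genes and of Lamc3 in each of the 6 libraries, with symbols for replicate numbers, bars for arm means and a dotted line at 1 TPM. The open symbol at the foot of the axis is Lamc3 in NT replicate 1, with 0 counts. Lama1, Lama2 and Lamc3 lie far under the line in both arms, and the arms of Lama4 do not overlap.

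Lama1, the α chain of early embryonic basement membranes, had 1, 7 and 5 counts in NT and 8, 10 and 5 in siID4. Lama2, the α chain of muscle and peripheral nerve, had 8, 3 and 3 counts in NT and 12, 6 and 5 in siID4. Lamc3 had 0, 4 and 3 counts in NT and 4, 2 and 10 in siID4, where the 0 allows a level of up to 0.151 CPM (3 counts, counting error only). The arms overlapped for each of the 3 genes. All 3 were below the filter on low counts and were not tested, so 7 of the 9 members were tested.

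Of the 7 members tested, Lama4 rose and none fell. A share of 1 in 7 stands beside 9.55% over all genes. The median log2 fold change of the 7 was 0.04, from −0.15 to 0.44, against 0.00 over all genes tested. With the replicate block Lama4 and Lamc1 rose and Lama5 and Lama3 fell, 4 of 7 where 36.1% of all genes were called. The arms did not overlap for Lama4, Lama5 and Lamc1, 3 of 7, and for 30.9% of all genes tested (15.5% higher and 15.4% lower).

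Lama4 encodes the α4 chain, which lacks most of the amino-terminal short arm that other α chains use to polymerise. It was at 46.0, 47.6 and 48.7 CPM in NT and at 70.5, 61.4 and 61.6 CPM in siID4. Every siID4 library was above every NT library, and siID4 replicate 1 was the highest. On average it rose by 35.9%, from 47.4 ± 1.40 to 64.5 ± 5.17 CPM (SD, n = 3), which is 0.44 on the log2 scale (SE 0.07, edgeR adjusted p = 0.00532; exact permutation p = 0.1, the smallest that 3 against 3 libraries allow). It passed in all 6 fits that left out a library, with adjusted p from 0.0105 to 0.0332. Within replicate numbers 1, 2 and 3 the difference was 0.62, 0.37 and 0.34. In GRCm38 it spans 38965515 to 39110188 of chromosome 10, plus strand, and has 1 protein-coding transcript of 38 exons among 7.

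Lama5 encodes the α5 chain, the main α chain of adult epithelial basement membranes. It was at 382, 360 and 406 CPM in NT and at 343, 338 and 353 CPM in siID4, with every siID4 library below every NT library. The means were 383 ± 23.1 and 345 ± 7.58 CPM. This is −0.15 on the log2 scale (SE 0.05, edgeR adjusted p = 0.0996). With the replicate block Lama5 fell, with an adjusted p of 4.55e-05 (SE 0.03), and the differences within numbers were −0.16, −0.09 and −0.20. It spans 180176373 to 180225859 of chromosome 2, minus strand, in 79 exons.

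Lama3 encodes the α3 chain, an epithelial chain of the hemidesmosome's laminin. It was at 27.3, 22.8 and 32.7 CPM in NT and at 25.0, 20.5 and 29.1 CPM in siID4. The arms overlapped, and within each arm replicate 3 was the highest and replicate 2 the lowest. The estimate was −0.15 on the log2 scale (SE 0.16, edgeR adjusted p = 0.597). Leaving out a library moved it widely, to −0.28 when siID4 replicate 3 was dropped and −0.27 for NT replicate 2, and to −0.03 for siID4 replicate 2 and −0.01 for NT replicate 3. The differences within numbers were −0.13, −0.15 and −0.17, and with the block Lama3 fell (SE 0.06, adjusted p = 0.0354). Its 2 coding transcripts, of 5551 and 10548 bases, differ much in length, so its level per length depends on which was counted. The table's length, 6528 bases, lies 19.5% of the way from the shorter to the longer.

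**Figure D2:**
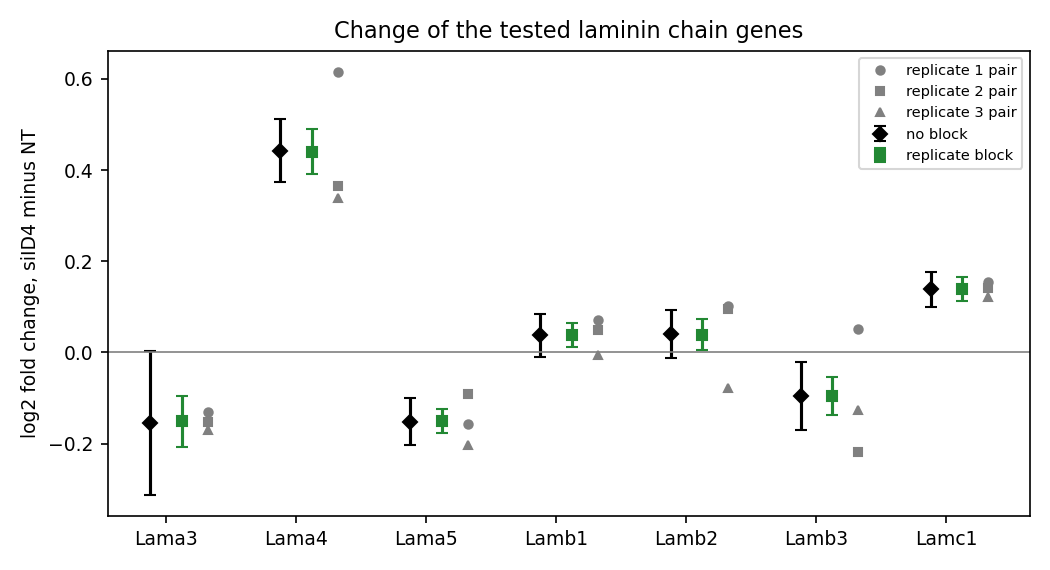
Log2 fold change (siID4 minus NT) of the 7 tested laminin chain genes, with the fit without a block (diamonds) and with the replicate number as a block (squares), error bars of 1 SE, and the difference within each replicate number in grey. The estimates are nearly equal in both fits and the errors are smaller with the block, most of all for Lama3.

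The β chain genes did not pass in either fit. Lamb1, which encodes the widespread β1 chain, was at 345, 338 and 368 CPM in NT and at 362, 350 and 367 CPM in siID4, with overlapping arms (log2 fold change 0.04, SE 0.05, edgeR adjusted p = 0.675). Lamb2, for the β2 chain known from the neuromuscular junction and the kidney glomerulus, was at 122, 116 and 124 CPM in NT and at 130, 124 and 117 CPM in siID4. Its estimate was also 0.04 (SE 0.05, adjusted p = 0.692). Lamb3, for the β3 chain that pairs with α3 in epithelia, was at 84.8, 87.6 and 96.1 CPM in NT and at 87.9, 75.3 and 88.1 CPM in siID4. Its log2 fold change was −0.10 (SE 0.07, adjusted p = 0.470, and 0.0816 with the block). The differences within numbers had both signs for all 3 β chain genes.

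Lamc1 encodes the γ1 chain, shared by most laminins. It was at 425, 425 and 436 CPM in NT and at 473, 469 and 475 CPM in siID4, with little spread within an arm and no overlap. The means were 429 ± 6.57 and 472 ± 3.17 CPM, a log2 fold change of 0.14 (SE 0.04, edgeR adjusted p = 0.0536). Lamc1 stood at the threshold. It passed with the block (adjusted p = 5.76e-05), library totals (0.0220), a minimum mean of 5 CPM (0.0304), upper quartile scaling (0.0395), DESeq2 (0.0446) and limma-voom (0.0489), and in none of the 6 fits that left out a library (0.0772 to 0.170). It spans 153218922 to 153332786 of chromosome 1, minus strand. DESeq2 called 11.4% of the genes it tested (5.31% higher and 6.08% lower in siID4) and limma-voom 9.67% (4.73% higher and 4.94% lower).

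Among the 7 members tested, 2 (Lama4 and Lamc1) were higher in siID4 in all 3 numbers and 2 (Lama3 and Lama5) lower, beside 29.8% and 29.6% of all genes tested.

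Shares within a chain class do not depend on the scaling between libraries. Of 14 sums, shares and ratios computed from the levels per length, 5 had arms that did not overlap and so reached the smallest exact permutation p of 0.1, two-sided (0.28 after Benjamini-Hochberg adjustment over the 14). No value in this family could pass at 0.05. The share of Lama4 in the summed α chain level was 16.9%, 18.5% and 16.7% in NT and 25.7%, 23.8% and 22.5% in siID4, a mean difference of 6.65 percentage points. The level of this share depended on the gene length, and with union exon lengths it was 9.82 ± 0.563% in NT and 14.1 ± 1.06% in siID4, a difference of 4.26 points with arms that again did not overlap. The share of Lama5 was 73.8%, 73.3% and 73.0% in NT and 65.7%, 68.8% and 67.6% in siID4. Lama5 remained the main α chain gene, and Lama4 took a larger share in each siID4 library than in any NT library. Lama3 held 9.18 ± 1.09% in NT and 8.45 ± 1.24% in siID4. Its arms overlapped, and within replicate numbers the differences were −0.85, −0.82 and −0.53 points.

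The level of Lama4 relative to Lama5 went from 0.236 to 0.356 (geometric means), a log2 difference of 0.59. With union exon lengths the ratio was 0.117 in NT and 0.176 in siID4, and the log2 difference, in which lengths cancel, was 0.59 as well. For Lama3 relative to Lama5 the log2 difference was −0.00, and it ran from −0.11 without siID4 replicate 3 to 0.12 without siID4 replicate 2. Among the β chains, Lamb1 held 52.6 ± 0.0949% in NT and 53.4 ± 0.999% in siID4, Lamb2 28.7 ± 0.657% and 29.2 ± 1.43%, and Lamb3 18.7 ± 0.613% and 17.3 ± 1.07%, all with overlapping arms. For Lamb3 the differences within numbers were −0.30, −2.84 and −1.01 points. The ratio of Lamb3 to Lamb1 was lower in each siID4 library than in any NT library, by 0.14 on the log2 scale on average. The differences within numbers were −0.02, −0.27 and −0.12, and without siID4 replicate 2 the mean difference was −0.08.

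**Figure D3:**
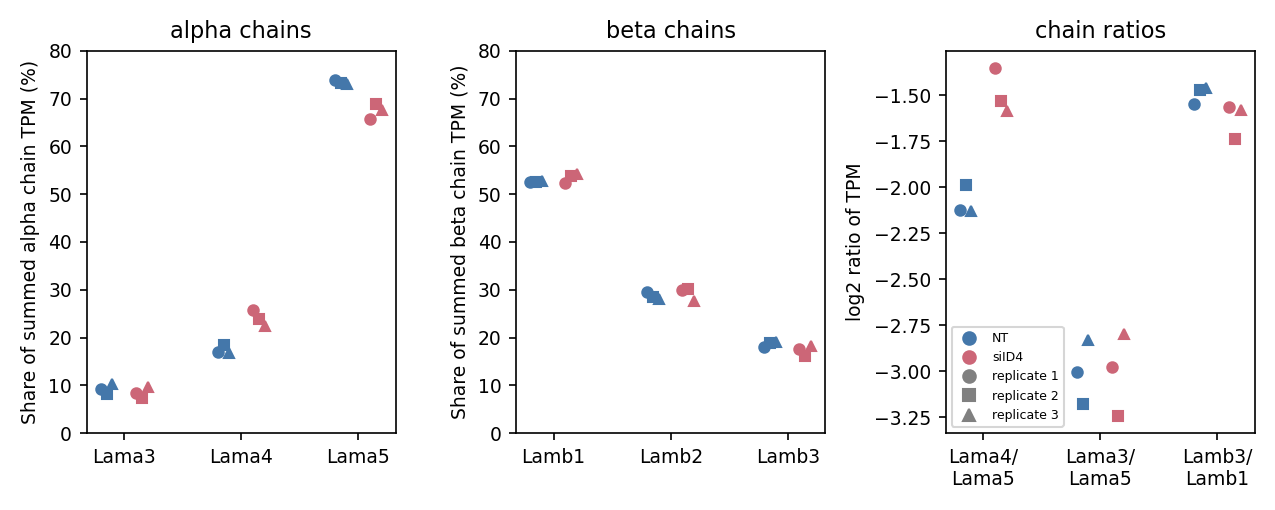
Share of each gene in the summed TPM of the α chains (left) and the β chains (middle), in percent, and 3 log2 ratios of TPM between chains (right), for each of the 6 libraries. Lama4 takes 22.5% to 25.7% of the α total in siID4 against 16.7% to 18.5% in NT, while the β shares overlap between the arms.

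Summed over each class, the α chains reached 85.6 ± 4.95 TPM in NT and 86.9 ± 2.25 in siID4, and the β chains 220 ± 8.55 and 230 ± 6.00. The arms overlapped for both, and the sign of the α difference depended on the setting (log2 difference 0.02 with TPM, −0.03 with TMM-scaled counts per kilobase or union exon lengths). The α sum was 0.388 of the β sum in NT and 0.377 in siID4. The arms of this ratio overlapped with the deposited lengths, and the log2 differences within numbers were −0.07, −0.01 and −0.05. They did not overlap with union exon lengths (log2 difference −0.09) or the longest coding transcripts (−0.04). The level of Lamb1 relative to Lamc1 went from 1.00 to 0.933, a log2 difference of −0.10 without overlap.

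Known trimers were read against these levels with a simple rule, in which a trimer is allowed in an arm if each of its 3 chain genes has a mean of at least 1 TPM. Of 13 known trimers examined, 6 were allowed in NT and 6 in siID4, and they were the same trimers. They are laminins 311 and 321 with α3, 411 and 421 with α4, and 511 and 521 with α5. Laminins 111, 121, 211 and 221 lacked their α chain, 423 and 523 lacked γ3, and 213 lacked both. Messenger levels do not give protein amounts, and which chains join was not measured.

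With the deposited lengths, the α chain gene had the lowest mean level in each of the 6 allowed trimers, in both arms. The lowest level was 62.8 ± 3.45 TPM in NT and 58.5 ± 0.691 in siID4 for laminin 511. For laminins 411 and 421 it was 14.8 ± 0.432 and 20.9 ± 1.69 TPM, and every siID4 library was above every NT library. For laminins 311 and 321 it was 7.90 ± 1.39 and 7.35 ± 1.20 TPM. Laminin 521 depended on the gene length used, and with the deposited lengths Lama5 (62.8 TPM) and Lamb2 (63.2) overlapped in NT. The table gives Lamb2 a length of 3558 bases, while its longest coding transcript has 5629. With union exon lengths Lamb2 was the lowest gene of laminin 521, at 60.7 TPM in NT and 64.8 in siID4. With the longest coding transcript of each chain Lamb2 was again the lowest, at 40.0 TPM in NT and 42.6 in siID4. Under both of these lengths the α chain gene was the lowest in 5 of 6.

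Laminin receptors were measured as a list of 11 genes. Of these, 2 fell (Cd151 and Itgb4) and none rose, where 9.55% of all genes were called. With the block 1 rose and 5 fell, where 36.1% of all genes were called. The median of the list was −0.04 on the log2 scale, beside 0.00 over all genes. Cd151, a tetraspanin that holds laminin-binding integrins in the membrane, fell from 245 ± 1.45 to 146 ± 7.23 CPM (−0.75 on the log2 scale, SE 0.05, edgeR adjusted p = 1.24e-04) and passed without any one library. Itgb4, the integrin β4 subunit that binds laminin in hemidesmosomes, went from 463 ± 34.4 to 391 ± 19.5 CPM (−0.24, SE 0.06, adjusted p = 0.0397), and passed in 1 of the 6 fits without a library (highest adjusted p 0.176).

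The other defining receptor genes did not pass. Itga3, the α subunit of the main laminin-binding β1 integrin of epithelia, was at 492, 548 and 643 CPM in NT and at 436, 447 and 526 in siID4 (log2 fold change −0.26, adjusted p = 0.174, and 6.54e-09 with the block). Itga6, the partner of Itgb4, was lower by an estimated −0.11 on the log2 scale (adjusted p = 0.169, and 0.00236 with the block). Itgb1, the common β1 subunit, had 0.03, and Dag1, which encodes dystroglycan, had −0.04 (adjusted p = 0.797 and 0.663). The hemidesmosome list of 8 genes shares Itga6, Itgb4 and Cd151 with the receptors. In it Cd151 and Itgb4 fell and Dst rose, with a median of −0.15, where 9.55% of all genes were called. With the block 2 of the list rose and 4 fell, where 17.9% and 18.3% of all genes did. Dst, a plakin that links hemidesmosomes to keratin, went from 350 ± 3.36 to 388 ± 7.84 CPM (adjusted p = 0.0451) and passed neither in any of the 6 fits without a library nor when genes of low counts were kept in (adjusted p = 0.0757). The table splits Dst over 3 rows and the row with the most counts was used, so its value is uncertain.

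The other basement membrane components numbered 20, of which 15 were tested. Pxdn, Col7a1, Hspg2 and Col4a5 rose, none fell, and the other 11 did not pass, where 4.62% of all genes tested rose. With the block 9 rose and 2 fell, where 17.9% and 18.3% of all genes did. Their median was 0.19. Pxdn, the peroxidase that crosslinks collagen IV, rose from 224 ± 9.60 to 274 ± 7.25 CPM (0.29 on the log2 scale, SE 0.05, edgeR adjusted p = 0.00628) and passed without any one library. Col7a1, the collagen of anchoring fibrils, went from 267 ± 38.1 to 374 ± 40.4 CPM (0.49, SE 0.11, adjusted p = 0.0310). The log2 fold change was 0.19 for the perlecan gene Hspg2 and 0.42 for Col4a5, a collagen IV chain (adjusted p = 0.0344 and 0.0477). Leaving out a library kept the call in 1 of 6 fits for each of Col7a1, Hspg2 and Col4a5. Neither Col7a1 (adjusted p = 0.153) nor Col4a5 (0.110) passed when genes of low counts were kept in. Among 11 proteases known to cut laminins or to act near them, Plat, tissue plasminogen activator, rose (63.9 ± 8.47 to 87.0 ± 7.60 CPM, adjusted p = 0.0253, 2 of 6 fits without a library). The other 10 did not pass, and 9.55% of all genes were called. The median of the 11 was 0.10. With the block 6 proteases rose and 2 fell, where 17.9% and 18.3% of all genes did.

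**Figure D4:**
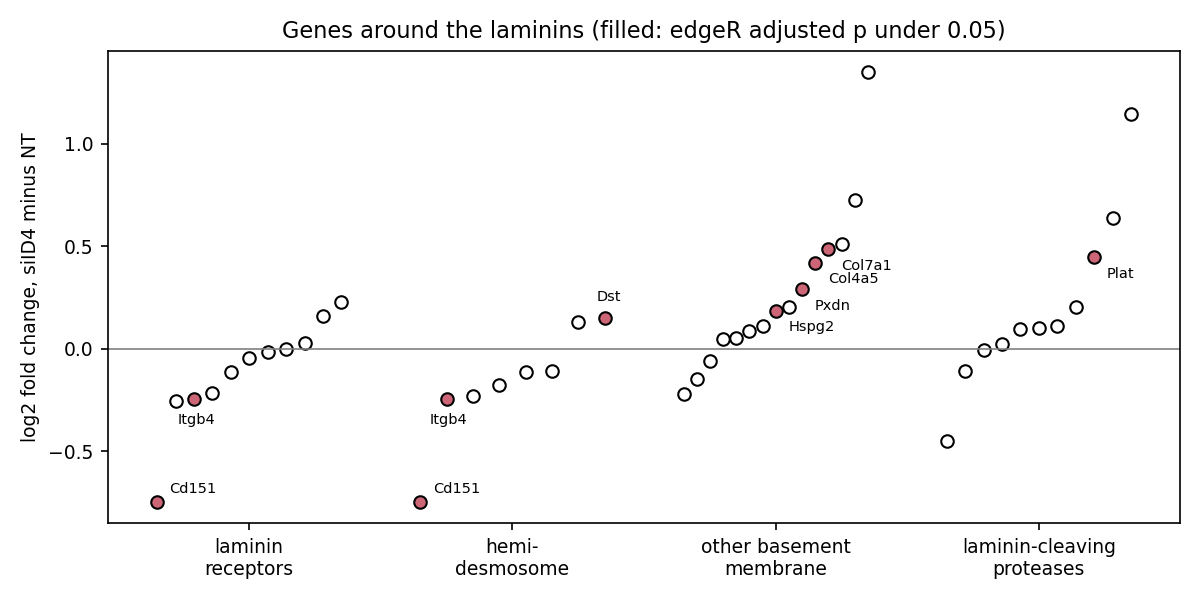
Log2 fold change (siID4 minus NT) of each tested gene in 4 lists of genes that act with laminins, sorted within a list, with filled points for genes called by edgeR. Cd151 and Itgb4, which stand on both of the first lists, lie below 0, and the 4 called basement membrane genes lie above 0.

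Markers of other cell types were read beside the rise of Lama4. Of 11 fibroblast markers, 9 were tested. Col1a1, Cxcl12, Col1a2 and Pdgfrb rose and Pdgfra fell, with a median of 0.60, where 4.62% of all genes rose and 4.93% fell. With the block 7 rose and 2 fell (Pdgfra and Dcn), where 17.9% and 18.3% of all genes did. The 11 markers summed to 2821 to 3104 CPM in NT libraries and to 4025 to 4260 CPM in siID4 libraries. Most of it came from Col1a1 and Col1a2, and 3 markers had a mean under 1 CPM, among them Lum and Dpt. The markers did not all rise, and the part of the rise of their sum in that of Lama4 was not tested. In bulk RNA, more cells of a type and more RNA per cell cannot be told apart.

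Defining endothelial genes were near 0, with Pecam1 at 0.280 ± 0.0922 CPM in NT and 0.470 ± 0.0594 in siID4. Of 9 endothelial and pericyte markers in the table, 7 had a mean under 1 CPM. The sum was 21.6 to 27.3 CPM in NT and 30.0 to 38.3 in siID4. Most of it came from Mcam, at 20.8 ± 2.70 CPM in NT and 29.0 ± 3.88 in siID4. Of 3 tested 1 was called, Mcam, which rose, and 2 rose with the block, where 4.62% and 17.9% of all genes did. Leukocyte markers summed to at most 3.16 CPM in NT and 4.08 in siID4. Adipocyte markers summed to at most 0.408 CPM in any library, with Plin1 at 0 in all. Muscle and Schwann cell markers summed to at most 2.66 CPM, with Myog, Ckm and Sox10 at 0 in all. Only 2 leukocyte, 0 adipocyte and 2 muscle and Schwann cell markers passed the filter and were tested. None of these was called (0 with the block as well).

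The genes whose pattern over the 6 libraries was most like that of Lama4 were Zfp651, Gpr176 and Lrig3, out of 10284 tested genes whose mean reached 5 CPM. Likeness was the mean absolute difference between both genes' log2 deviations from their own means. It was 0.0224 for Zfp651, a zinc finger gene, 0.0345 for Gpr176, an orphan receptor gene, and 0.0410 for Lrig3, a leucine-rich repeat membrane protein gene. Their log2 fold changes were 0.41, 0.40 and 0.38. The genes were chosen for likeness to Lama4 over both arms, so changes near that of Lama4 follow from the choice.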

How the data were processed

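RNA was extracted with the Qiagen miRNease mini kit and made into libraries from 1 µg with a stranded TruSeq mRNA kit, per the labels' protocols. The authors deposited expected counts per gene, 1 column per library, and a gene length. Trimming, alignment and counting tools were cutadapt, STAR and RSEM with mm10, per the submitters' processing notes. Versions, annotation, strand setting and what the description of the table as filtered means were not given in the sources consulted. Counts were rounded (10.0% to 10.6% of values were not whole, tolerance 0) and fitted by edgeR 4.0.16 (R 4.3.3) with TMM, filterByExpr, robust quasi-likelihood tests and group as the only term. Benjamini-Hochberg adjustment ran over all 13941 genes tested, and calls needed an adjusted p under 0.05. The fit without a block was tested on simulated counts with no link between libraries of the same replicate number. That test does not cover such links in these data. limma 3.58.1 and DESeq2 1.42.0 were alternatives. SEs come from the F statistic. TPM used the deposited length, with no effective-length correction, so TPM here differs from RSEM's. Pair differences added 0.5 to each count. The biological coefficient of variation was 7.83%. Positions are from GENCODE M21 on GRCm38, which is mm10; 25376 genes matched and 279 did not.

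Both arms number replicates 1 to 3. Deviations from the arm means went together in libraries of the same number (correlation across genes, which are not independent replicates, 0.38, 0.13 and 0.36). The numbers were therefore taken to pair the libraries in the block fit and in the differences within numbers. The main fit and the permutation tests do not use this pairing, because the labels name no block and do not say what pairs share. Chi-square per gene between libraries of an arm was 5.09 to 13.6, above what counting error alone gives. No library was therefore taken as a repeat count of another, and each was used as its own replicate. These values cannot show whether the libraries came from separate cultures. Named genes were all 9 members, Lamc3, Id4, 5 receptor genes whatever their test gave, up to 4 called genes per list and the 3 genes most like the member with the smallest adjusted p. Krt14, Pecam1, Lum, Dpt, Pdgfra, Dcn and markers listed at 0 were named outside this rule, after their values were seen. Some items are not reported here. Members and lists were chosen with earlier results of these data known.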

Additional observations from a re-analysis of the deposited data

How the results depend on the processing

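The number of laminin chains that rose was 1 as reported, 1 with DESeq2 size factors and with no filter on low counts, and 2 with upper quartile scaling, library totals, a minimum mean of 5 CPM, DESeq2, limma-voom and the replicate block. The second was Lamc1 in each case. The number that fell was 0, and 2 with the block (Lama5 and Lama3). With the block 2493 genes rose and 2545 fell over all genes. Leaving out a library gave 221 to 686 genes that rose, 224 to 665 that fell, and 1 laminin chain that rose in each fit; counts moved most without NT replicate 2 (291 and 340), NT replicate 3 (423 rose), siID4 replicate 1 (404 rose) and siID4 replicate 2 (221 and 224). Lama4 passed under all 14 alternatives. Itgb1, which did not pass, had log2 fold changes from −1.23e-04 (without siID4 replicate 3) to 0.0691 (without NT replicate 3) when a library was left out. With union exon lengths the difference in share was 4.26 percentage points for Lama4 and −4.02 for Lama5, and the log2 difference of the α to β ratio was −0.0924. With TMM-scaled counts per kilobase that of the β sum was 0.0149, against 0.0643. The number of trimers allowed was 6 per arm under each alternative (other lengths, TMM-scaled counts per kilobase, minimums of 0.5 and 5 TPM, and each library left out). For sums, shares and ratios a replicate block cannot change the mean difference in this balanced design and is no check of it. Library totals shifted the median of all genes by 0.03. The lengths of the longest coding transcripts were an alternative chosen after the data were seen. The cause of these shifts was not tested. Depth limits Lama1, Lama2 and Lamc3, whose changes were not detectable at 0 to 12 counts per library.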
